A study of Mus musculus with 42 samples.

Results

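The transcriptomes of c-Kit+ spermatogonia that had lost the chromatin remodeler CHD8 were compared with those of littermate controls. The comparison used 6 of the 12 RNA-seq libraries of the study, 3 from CKO pups (Ddx4-Cre; Chd8 F/-) and 3 from control pups (Ddx4-Cre; Chd8 +/F), chosen by their labels, all taken from testes at 10 days post partum (dpp) on a C57BL/6J background. The other 6 libraries are Thy1+ cells of the same genotypes and age. Both genotypes carry the Cre transgene, whose Ddx4 promoter drives it in germ cells. A control germ cell therefore keeps a wild-type allele after recombination and a CKO germ cell keeps none, whereas somatic cells of a control pup carry a wild-type and a floxed allele and those of a CKO pup a floxed and a null allele. The cells were not sorted by flow cytometry. The testes were dissociated with collagenase and trypsin, strained and plated to remove somatic cells, and the suspension was then enriched with magnetic beads against c-Kit, a receptor that the authors used as a marker of differentiating spermatogonia and that mast cells and some Leydig cells also display.

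In the mouse testis, undifferentiated spermatogonia respond to retinoic acid by turning on c-Kit and STRA8, and enter meiosis some divisions later. The paper uses STRA8 to mark differentiating spermatogonia as well as preleptotene spermatocytes. Meiotic prophase needs a dedicated set of proteins, namely cohesins with germ-cell subunits that organize the chromosome axis, the synaptonemal complex that joins homologs, the SPO11 machinery that breaks DNA, and the recombinases and crossover factors that repair the breaks. Many of these genes are already transcribed at a low level in differentiating spermatogonia, before the proteins are used. CHD8 is an ATP-dependent remodeler of the CHD family, known for its role in the regulation of transcription at promoters.

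The 6 libraries held between 32937873 and 40810316 read counts each, and 17134 of 27179 annotated genes were expressed at a level that could be tested. Levels are given as CPM (counts scaled to a common library size) after TMM normalization, always for replicates 1, 2 and 3 in this order, and differences as the log2 fold change of CKO over control with its standard error (SE). A signed value given for the change of a gene or for the median of a list is such a log2 fold change. Libraries of a genotype were close to each other (Spearman correlation of log2 CPM from 0.991 to 0.995, against 0.968 to 0.987 between genotypes), and the first principal component, with 59.0% of the variance, separated the genotypes. Control replicate 1 lay nearest to the CKO libraries on this component, at −22.8 against −52.3 and −39.4 for the other controls and 30.5 to 43.9 for the CKO libraries. Chd8 itself had 272, 317 and 286 CPM in control and 303, 315 and 296 CPM in CKO libraries, so that the groups overlapped. Recombination removes only some exons of Chd8, and these whole-gene counts do not check the genotype labels. The antigens used for sorting overlapped between genotypes, with 679.8, 744 and 652 CPM in control and 769, 781 and 678 CPM in CKO libraries for Kit and 0.966, 0.714 and 0.454 CPM in control and 0.765, 0.827 and 1.07 CPM in CKO libraries for Thy1, and neither gene was called (edgeR FDR = 0.29 and 0.56). With the germ-cell scaling described further on, Chd8 (0.53) and Kit (0.57) were called higher in CKO libraries.

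Genes of the germline were lower and genes of the somatic testis higher in the CKO c-Kit+ libraries than in the controls. A gene was called when its FDR in edgeR's quasi-likelihood test was under 0.05 and its log2 fold change was over 0.5 in either direction. In all, 3812 genes (22.2% of those tested) were called, and 52.4% had libraries that did not overlap by genotype. Of the calls, 2542 were higher (14.8%) and 1270 lower (7.41%) in CKO libraries, and with the replicate number as a blocking term 15.8% and 7.51% were. The falls reached further than the rises, since 445 genes fell more than 2-fold, 101 more than 4-fold and 24 more than 8-fold, whereas 758 rose more than 2-fold and 28 more than 4-fold. Among 189 tested genes of 11 germ-cell lists, 101 fell (53.4%) and 2 rose, with a median log2 fold change of −0.59 against 0.01 over all tested genes. Among 92 tested marker genes of 7 somatic cell types and of red blood cells, 59 rose (64.1%) and 0 fell by edgeR's test, with a median of 0.90, and in 60 of the 92 every CKO library lay above every control (27.2% of all genes did), against 3 with the reverse order (25.2%). The lists were chosen with earlier results of these data known, so their shares are a description. The plot of change against level shows the germ-cell genes spread downward over the whole range of expression and the somatic markers gathered above the line.

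**Figure D1:**
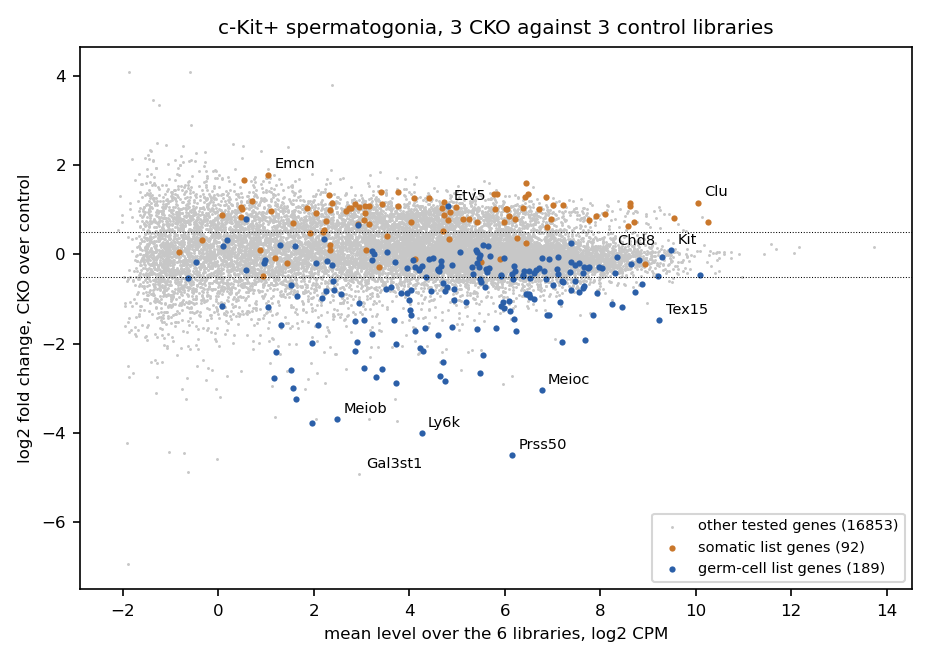
Log2 fold change of CKO over control (y axis) against the mean level in log2 CPM (x axis) for the 17134 genes tested in c-Kit+ spermatogonia, with germ-cell list genes in blue, somatic list genes in orange and dotted lines at a log2 fold change of 0.5 in either direction. Germ-cell genes reach −4.50 (Prss50) while somatic list genes reach 1.79 (Emcn).

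A bead-enriched fraction can hold cells of other types, so the markers of the testis soma were examined first. The 15 Sertoli markers summed to 803 to 2081 CPM in control and 3163 to 3477 CPM in CKO libraries, and 14 of them rose (14.8% of all genes did). Amh, the hormone of immature Sertoli cells, had 73.1, 18.3 and 38.2 CPM in control and 129, 136 and 129.9 CPM in CKO libraries, with a log2 fold change of 1.61 (SE 0.36, edgeR FDR = 0.0056). Its highest control library, replicate 1, stayed below every CKO library. Sox9, the transcription factor that specifies Sertoli cells, had 45.2, 18.8 and 32.2 CPM in control and 80.8, 88.4 and 76.3 CPM in CKO libraries and changed by 1.35 (SE 0.24). Kitl, the ligand of c-Kit, and Gdnf, a self-renewal factor, both supplied to spermatogonia by Sertoli cells and named here after their values were seen, had 81.3, 46.6 and 74.2 CPM in control and 163, 162 and 173 CPM in CKO libraries, and 13.6, 11.1 and 12.5 CPM in control and 33, 28.5 and 27.9 CPM in CKO libraries, respectively. Neither gene had overlapping groups.

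Of 12 Leydig markers, 8 rose (66.7%), against 14.8% of all genes. Among them were Hsd3b1 of steroid synthesis (229, 218 and 312 CPM in control and 576, 425 and 609.7 CPM in CKO libraries) and the nuclear receptor Nr5a1 (1.10, SE 0.13). Star, which carries cholesterol into mitochondria, had 63.8, 41.3 and 174 CPM and 124, 73.5 and 229.5 CPM, overlapped and was not called, although it was called once replicates were blocked by number. Endothelial markers rose in 11 of 15 cases, with the cadherin Cdh5 at 43.8, 35.1 and 31.1 CPM in control and 94.5, 63.8 and 65.5 CPM in CKO libraries. Stromal markers rose in 11 of 15 and peritubular myoid markers in 6 of 12, with Col1a2, a chain of type I collagen, at 618, 539 and 465 CPM in control and 1192, 839 and 839 CPM in CKO libraries and Tpm2, a tropomyosin, at 18.3, 14.4 and 15.8 CPM in control and 40.9, 29.5 and 38.8 CPM in CKO libraries. Mast cells carry c-Kit on their surface, and 6 of 7 mast cell markers rose, including the protease gene Mcpt4 with 8.27, 6.21 and 2.81 CPM in control and 14.1, 12.2 and 19.3 CPM in CKO libraries (log2 fold change 1.40, SE 0.32, edgeR FDR = 0.0063). For macrophages 3 of 14 markers (21.4%) were called, and 10 with the replicate block, by which 15.8% of all genes were called higher. The 2 tested red blood cell genes, Alas2 and Klf1, changed by 0.10 and −0.48 and were not called. No marker of these lists was at 0 in all 6 libraries. In bulk samples such as these, fewer germ cells among somatic cells, a different mix of germ-cell stages and less germ-cell RNA per cell cannot be told apart.

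The same libraries differed in transcripts of a cell's response to dissociation. All 18 immediate early and stress genes of that list were higher in CKO libraries and 13 were called, with a summed level of 1532 to 3450 CPM in control and 3877 to 5930 CPM in CKO libraries. Egr1, an immediate early transcription factor, had 565, 275 and 329 CPM in control and 998, 759.8 and 674 CPM in CKO libraries, and Fos had 560.4, 246 and 317 CPM in control and 969.9, 632 and 625 CPM in CKO libraries. Control replicate 1 had the highest Sertoli, macrophage and dissociation sums of the 3 controls, at 1.44, 1.63 and 1.47 times the control mean. The part of these somatic and dissociation transcripts in the changes of other genes was not tested. Without control replicate 1, 107 germ-cell list genes fell and 70 somatic list genes rose.

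A germ-cell yardstick was set beside TMM scaling. The pan-germ list holds 14 genes expressed in germ cells from before spermatogonia to meiosis, such as the RNA helicase Ddx4 and the RNA-binding protein Dazl. Its summed level was 4734 to 5723 CPM in control and 3362 to 3912 CPM in CKO libraries. Ddx4 had 419.8, 476 and 389 CPM in control and 379, 391 and 328 CPM in CKO libraries, with overlapping groups, and Dazl had 1199, 1423 and 1195 CPM in control and 958, 978 and 852 CPM in CKO libraries, without overlap (log2 fold change −0.45, SE 0.08, edgeR FDR = 0.0017), under the fold threshold. Of the 14 genes 2 were called, both lower. Tex15, a cofactor of piRNA-directed silencing, had 702, 1074 and 884 CPM in control and 314, 338 and 306 CPM in CKO libraries (log2 fold change −1.47, SE 0.13, edgeR FDR = 0.00013), and without it the sum was 3912 to 4649 CPM in control and 3056 to 3574 CPM in CKO libraries. When counts were scaled to the 14 genes, every fold change moved up by about 0.47 on the log2 scale, 350 genes (2.04%) were lower and 6984 (40.8%) higher, and lower genes made up 4.77% of the calls in place of 33.3%. All 350 were among the 1270. Scaled to the other 13 genes, a choice made after seeing the data, the shift was 0.32, with 483 genes lower and 4967 higher. The 101 germ-cell list genes that fell became 60 under the 14-gene scaling and 71 under the 13-gene scaling. Under the 14-gene scaling 15 germ-cell list genes rose, against 2 with TMM scaling, and their median was −0.12. Of the 92 somatic list genes 80 rose with that scaling. Counts of a list after pan-germ scaling are to be set against the shares over all genes, 2.04% lower and 40.8% higher. Those with TMM scaling are to be set against 7.41% lower and 14.8% higher. Neither scaling corrects for a different mix of germ-cell stages.

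**Figure D2:**
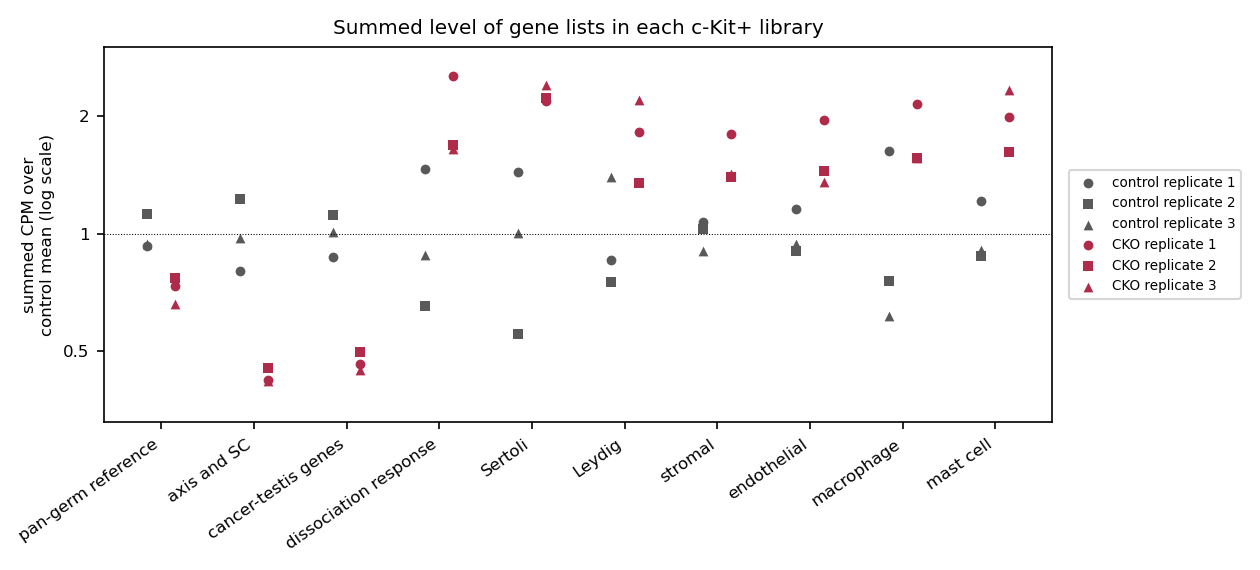
Summed CPM of the genes of 10 lists in each of the 6 c-Kit+ libraries, divided by the mean of the 3 control libraries (y axis, log scale), with control libraries in grey and CKO libraries in red, and replicates 1, 2 and 3 as circles, squares and triangles. The chromosome axis and synaptonemal complex (SC) list lies at 0.42 to 0.454 and the cancer-testis list at 0.447 to 0.499 in CKO libraries, the pan-germ list at 0.661 to 0.769 and the Sertoli list at 2.19 to 2.4.

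Regulators of differentiation and meiotic entry fell in part. Of 21 tested genes on this list, 12 fell and 0 rose (6 fell after pan-germ scaling), and its median was −0.67. Meioc, which with the helicase YTHDC2 clears mitotic transcripts so that germ cells enter meiosis, had 119, 235 and 229.5 CPM in control and 21.1, 24.9 and 24.9 CPM in CKO libraries. The lowest control, replicate 1, was still far above the CKO libraries, and Meioc changed by −3.04 (SE 0.23, edgeR FDR = 8.7e-05), a fall of 8.22-fold. Its partner Ythdc2 had 91.3, 138 and 126 CPM in control and 63.5, 64.6 and 64.6 CPM in CKO libraries, a change of −0.88 that fell short of the threshold after pan-germ scaling (−0.40). Rhox13, an X-linked homeobox gene of differentiating spermatogonia (chromosome X, 38120840 to 38129966), had 41, 45.8 and 48.6 CPM in control and 13.5, 14.9 and 15 CPM in CKO libraries and changed by −1.64 (SE 0.10, edgeR FDR = 3.1e-05). The replicates of both groups were tight, and the groups did not overlap.

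Stra8, the retinoic acid target that starts the meiotic program, had 541, 646 and 548 CPM in control and 354, 401 and 338 CPM in CKO libraries. It was lower in each CKO library than in each control (log2 fold change −0.67, SE 0.09, edgeR FDR = 0.00041), but changed by −0.20 after pan-germ scaling and was then not called. Tesmin (−1.72) and Ybx2 (−1.68), which bind chromatin and germline mRNA respectively, fell under both scalings. The transcription factors that drive differentiation upstream of them moved little. Sohlh1 had 129.8, 118 and 103 CPM in control and 94.8, 104 and 84.4 CPM in CKO libraries and Dmrt1 had 502, 448 and 459 CPM in control and 424, 449 and 410.5 CPM in CKO libraries, and both overlapped between genotypes. Sohlh2 changed by −0.33 (SE 0.08), under the threshold. Kit, as given above, overlapped too.

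All 4 meiotic cohesin subunits fell, under pan-germ scaling as well. Rec8, the cleavable kleisin that holds sister chromatids, had 42.2, 53 and 53.2 CPM in control and 24.4, 24.7 and 21.3 CPM in CKO libraries and changed by −1.08 (SE 0.11, edgeR FDR = 0.00021). The alternative kleisin Rad21l had 30.7, 56.7 and 43.8 CPM in control and 7.15, 10.3 and 7.22 CPM in CKO libraries, a fall of 5.29-fold (−2.40, SE 0.22). Smc1b changed by −1.11 and Stag3, the subunit common to meiotic cohesin complexes, by −1.19, with 397, 579.5 and 495 CPM in control and 212, 229.6 and 205 CPM in CKO libraries. None of these groups overlapped. Of 15 tested genes of mitotic cohesin and its loaders, 2 fell and 0 rose (0 fell and 3 rose after pan-germ scaling), and the list's median was −0.26. The 2 were the loader Nipbl (−0.87) and the acetyltransferase Esco2 (−0.83), whereas the mitotic kleisin Rad21 had 525, 509 and 468 CPM in control and 580.2, 574 and 502 CPM in CKO libraries and was not called.

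The chromosome axis and synaptonemal complex list fell broadly as well. Of 18 tested genes, 16 fell and 0 rose (11 fell after pan-germ scaling), with a median of −1.36. Sycp2 and Sycp3, which build the axis, had 215, 431 and 322 CPM in control and 81.6, 93.3 and 82.2 CPM in CKO libraries, and 138, 213 and 158 CPM in control and 64, 69 and 64.7 CPM in CKO libraries, respectively. Their changes were −1.91 (SE 0.20) and −1.36 (SE 0.14), and every CKO library lay below every control. Control replicate 2 was the highest for both. The transverse filament gene Sycp1 changed by −1.36, and the central element genes Syce1, Syce2 and Syce3 by −0.90, −0.69 and −0.88, of which none was called after pan-germ scaling.

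Axis proteins with a HORMA domain, which promote breaks and synapsis checks, fell as well. Hormad1 had 63.2, 112 and 81.3 CPM in control and 26.3, 30.6 and 25.1 CPM in CKO libraries (log2 fold change −1.64, SE 0.18, edgeR FDR = 0.00024), and Hormad2 changed by −1.35. The largest falls of the list were in genes that tether telomeres to the nuclear envelope, a step that lets chromosomes move and find their partners. Majin, the membrane anchor of this complex, had 18.2, 27.5 and 23.5 CPM in control and 3.03, 2.89 and 3.44 CPM in CKO libraries. With no overlap and tight CKO libraries, it changed by −2.89 (SE 0.17, edgeR FDR = 3.1e-05), a 7.39-fold fall. Spdya, a partner of CDK2 at telomeres, changed by −2.74 (SE 0.26), and the linker Terb2 by −2.17 (SE 0.27).

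**Figure D3:**
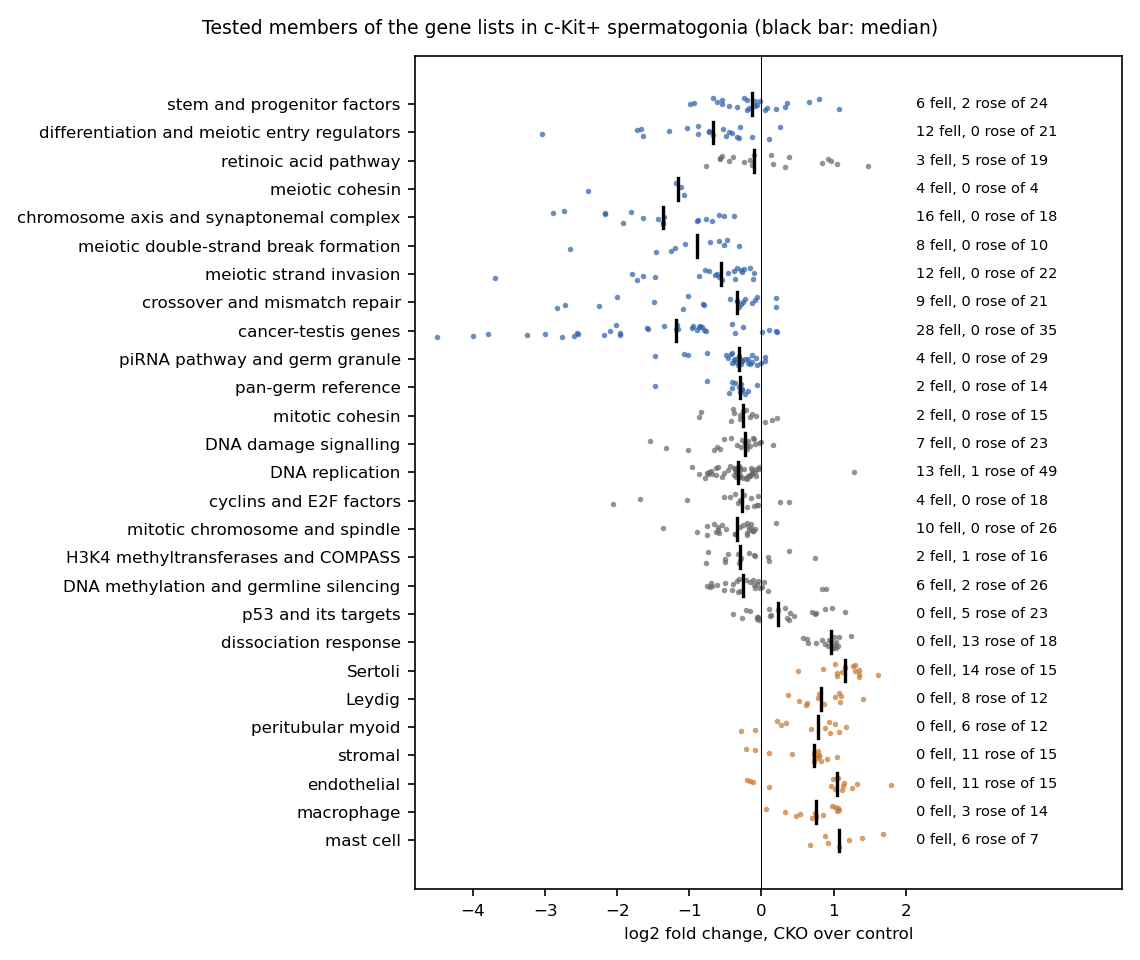
Log2 fold change of CKO over control (x axis) of each tested member of 27 gene lists in c-Kit+ spermatogonia (points, germ-cell lists in blue, somatic marker lists in orange, other lists in grey), with the median of a list as a black bar and its counts of called genes at the right. The axis and synaptonemal complex list and the cancer-testis list have medians of −1.36 and −1.19, and the 7 somatic lists shown have medians from 0.73 to 1.16.

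Genes for the formation of meiotic double-strand breaks fell in 8 of 10 cases (5 after pan-germ scaling). Spo11, the enzyme that cuts DNA, had 10.1, 16.5 and 9.83 CPM in control and 4.77, 4.38 and 4.05 CPM in CKO libraries (log2 fold change −1.47, SE 0.21, edgeR FDR = 0.00065), and Gm960, listed in other annotations as Top6bl, its partner subunit, changed by −1.25. Prdm9, the histone methyltransferase that marks hotspots of recombination, had 50.5, 103 and 79.3 CPM in control and 10.4, 11.6 and 14.9 CPM in CKO libraries. Every CKO library lay far below the lowest control, replicate 1, and the change was −2.66 (SE 0.24, edgeR FDR = 0.00014). Mei1, needed for break formation, changed by −1.19, and Zcwpw1, which reads the marks that PRDM9 writes, by −0.72. The remodeler Hells, which opens chromatin at hotspots, had 646, 786 and 646 CPM in control and 501, 524 and 460.5 CPM in CKO libraries and stayed just under the threshold (−0.48).

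Genes for the repair of these breaks differed among themselves. Of 22 strand invasion genes, 12 fell and 0 rose (5 fell after pan-germ scaling), with a median of −0.57. The meiotic recombinase Dmc1 had 84.9, 148 and 113 CPM in control and 35.7, 36.8 and 32.3 CPM in CKO libraries (log2 fold change −1.72, SE 0.17, edgeR FDR = 0.00018). Meiob, a single-strand binding protein of meiosis, had 5.58, 15.5 and 10.1 CPM in control and 1.12, 0.90 and 0.376 CPM in CKO libraries, so that it was near the lower end of detection in the mutants (log2 fold change −3.69, SE 0.43, edgeR FDR = 0.00029). Its partner Spata22 changed by −1.47. Mnd1, which helps DMC1, had 10.2, 10.3 and 8.5 CPM in control and 8.74, 8.87 and 9.16 CPM in CKO libraries, overlapped and was not called. Brca2 (−0.87) and Brca1 (−0.59) fell, and neither was called after pan-germ scaling.

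Among 21 crossover and mismatch repair genes, 9 fell and 0 rose (7 fell after pan-germ scaling). Msh5, which with MSH4 stabilizes crossover intermediates, had 28.9, 63.4 and 49.4 CPM in control and 6.86, 6.76 and 6.18 CPM in CKO libraries and changed by −2.84 (SE 0.25, edgeR FDR = 0.00013), a 7.15-fold fall. Shoc1 and Hfm1, which act in the same crossover pathway, changed by −2.72 (SE 0.25) and −2.26 (SE 0.25). Msh4 changed by −1.08 and Rnf212 by −0.81. The mismatch repair gene Msh6, used by all dividing cells, had 319, 347 and 338 CPM in control and 312, 345 and 302 CPM in CKO libraries, with overlap, and was not called.

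Of 23 genes of DNA damage signalling, 7 fell and 0 rose (3 fell after pan-germ scaling), with a median of −0.23. Atr, the kinase that acts at unsynapsed chromosomes, had 319, 495 and 409 CPM in control and 203, 206 and 192 CPM in CKO libraries (log2 fold change −1.02, SE 0.13, edgeR FDR = 0.00037), and the adaptor Mdc1 had 251, 394 and 302 CPM in control and 130.2, 134 and 114 CPM in CKO libraries, a change of −1.32. Neither gene overlapped between genotypes. Hus1b, a germ-cell paralog of a clamp subunit, changed by −1.54. The kinase Atm changed by −0.66 (SE 0.10) and Chek1 by −0.58 (SE 0.08), and both calls were lost under pan-germ scaling. The checkpoint kinase Chek2 changed by −0.20 and was not called.

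**Figure D4:**
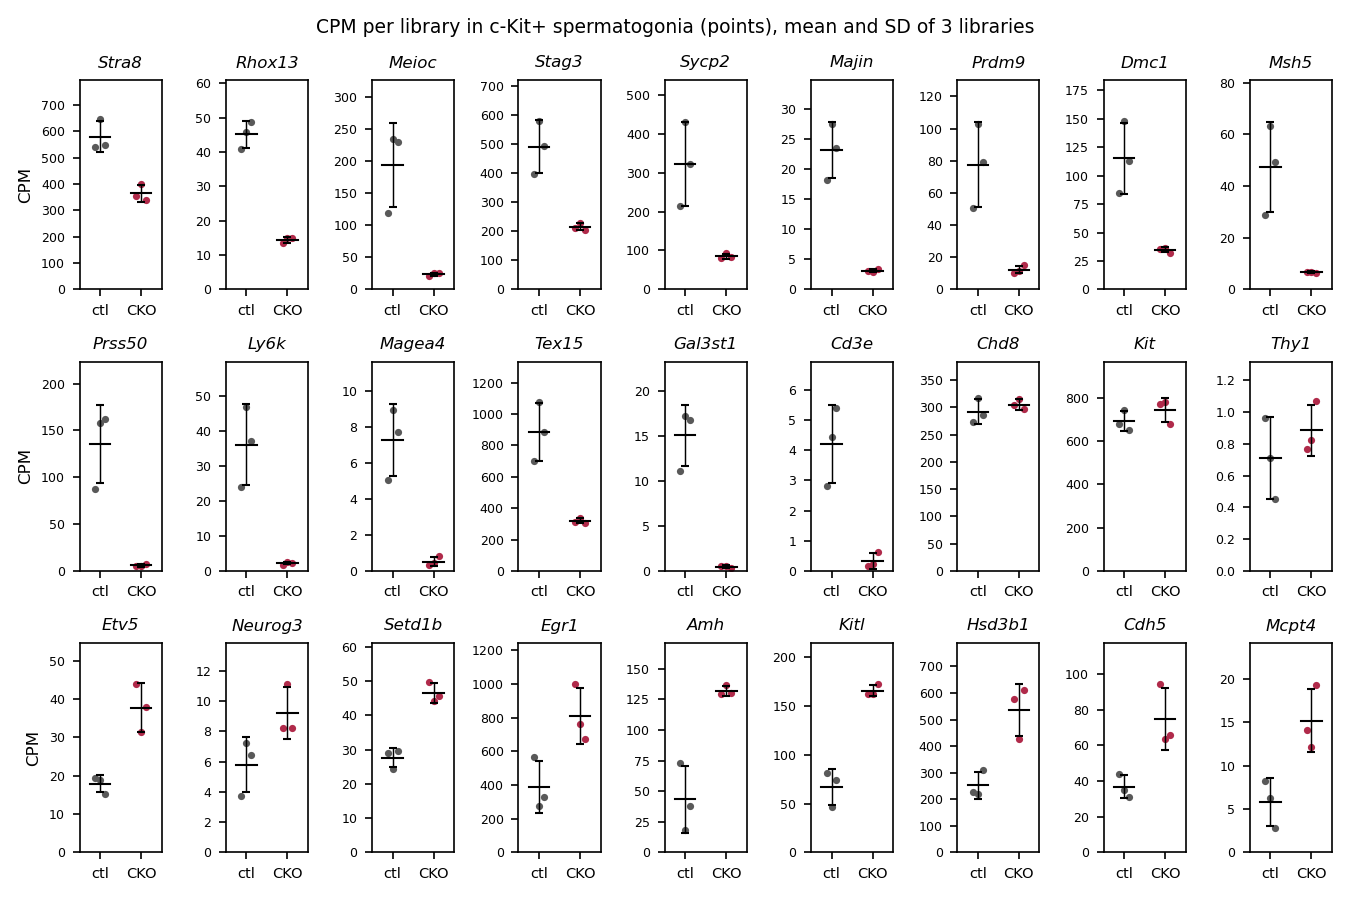
CPM of 27 genes in the 3 control (grey) and 3 CKO (red) c-Kit+ libraries, with a linear axis from 0 for each gene, the mean as a horizontal line and the SD as error bars. Meiotic and cancer-testis genes such as Meioc, Msh5 and Prss50 have no overlap, Chd8, Kit and Thy1 overlap, and somatic markers such as Amh are higher in all CKO libraries.

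Cancer-testis genes are expressed in the male germline and, when repression fails, in tumors, and many lie in multicopy families on the X chromosome. Of the lists, this held the largest falls of single genes, with 28 of 35 tested genes lower (80%, against 7.41% of all genes) and 0 higher. Its median was −1.19, and 18 were lower after pan-germ scaling, against 2.04% of all genes. Like the other lists it was chosen with earlier results of these data known, so these shares describe it and test nothing. Of its 27 tested members on the X chromosome 22 fell, and of its 8 on autosomes 6 fell. Prss50, a testis protease (chromosome 9, 110857967 to 110864628), had 87.7, 158 and 162 CPM in control and 5.0, 5.23 and 7.83 CPM in CKO libraries. Its control replicate 1 was lower than the other controls and still far above the highest CKO library. It changed by −4.50 (SE 0.26, edgeR FDR = 2.9e-05), a 22.6-fold fall. Ly6k, a GPI-anchored sperm surface protein, had 23.9, 46.9 and 37.1 CPM in control and 1.82, 2.48 and 2.4 CPM in CKO libraries, a 16.0-fold fall.

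Magea4, of the X-linked MAGE-A family of ubiquitin ligase cofactors, had 5.07, 8.98 and 7.75 CPM in control and 0.324, 0.438 and 0.809 CPM in CKO libraries (log2 fold change −3.79, SE 0.34, edgeR FDR = 0.00015). The 7 MAGE-A genes tested all fell, with log2 fold changes from −1.96 to −3.79, but they are close paralogs among which reads can be misassigned, so that the value of each single gene is uncertain. Slc25a31, the germ-cell ADP/ATP carrier, changed by −0.41 and was not called, and 4 members of the list had a log2 fold change above 0, of which 0 were called with TMM scaling and 2 with pan-germ scaling. Over the genome, the X chromosome stood apart in both directions. Of 704 tested X-linked genes 16.2% fell and 23.4% rose, against 3.89% to 9.27% and 10.2% to 19% on the single autosomes. Of the 19 X-linked genes that fell more than 4-fold, 7 are on the cancer-testis list.

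The 8 largest falls over all genes, by the rule for named genes, included Prss50, Ly6k, Magea4 and Meiob. The rule took called genes with a symbol, a mean log2 CPM of at least 1 and groups that did not overlap. Without these conditions the largest fall among called genes was −6.955, in a gene that the rule left out. Gal3st1, the sulfotransferase that makes the seminolipid of germ cell membranes (chromosome 11, 3983636 to 3999328), fell most of the 8. It had 11.1, 17.2 and 16.8 CPM in control and 0.53, 0.584 and 0.347 CPM in CKO libraries (log2 fold change −4.93, SE 0.26, edgeR FDR = 2.4e-05). The others were BC051142 (−3.75, SE 0.33), which lies on chromosome 17, the serine protease gene Prss41 (−3.69, SE 0.33) and Cd3e. Cd3e encodes a chain of the T cell receptor complex, and had 2.81, 4.43 and 5.39 CPM in control and 0.147, 0.219 and 0.636 CPM in CKO libraries, a change of −3.66 (SE 0.46, edgeR FDR = 0.00039). All 8 remained called after pan-germ scaling.

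Promoters are shown for 4 of these genes, because the windows hold letters bound by factors known from the germline. A window of 300 bases around the RefSeq start (250 before to 50 after, GRCm38.p6) was found for 12928 of the 17134 tested genes. The letters searched on both strands were CACGTG, the E-box bound by MAX and its partners, GGCGGGAA, a site of E2F factors, CNCCTCAG, a motif described for STRA8 and MEIOSIN, and CCAAT, the site of NF-Y. The 4 genes were chosen for holding a match, so the matches are a description of them and no more. The 250 bases before the start are printed 5′ to 3′ on the strand of the gene, with matches of the first 3 motifs in capitals. Prss50 lies at chr9:110857714-110857963 (plus strand), Msh5 at chr17:35046623-35046872 (minus strand), Hormad1 at chr3:95559427-95559676 (plus strand) and Stag3 at chr5:138280259-138280508 (plus strand).
Prss50: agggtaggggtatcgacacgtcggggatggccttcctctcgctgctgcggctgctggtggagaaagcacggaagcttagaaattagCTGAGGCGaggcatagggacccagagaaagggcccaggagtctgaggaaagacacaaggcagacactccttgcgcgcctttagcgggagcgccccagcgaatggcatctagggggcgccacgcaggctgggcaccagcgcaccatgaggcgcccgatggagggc
Msh5: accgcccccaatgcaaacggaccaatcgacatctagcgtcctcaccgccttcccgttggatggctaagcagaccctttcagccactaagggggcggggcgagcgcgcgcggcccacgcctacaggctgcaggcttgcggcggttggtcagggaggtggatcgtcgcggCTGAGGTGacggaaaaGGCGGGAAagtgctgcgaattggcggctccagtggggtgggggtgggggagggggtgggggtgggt
Hormad1: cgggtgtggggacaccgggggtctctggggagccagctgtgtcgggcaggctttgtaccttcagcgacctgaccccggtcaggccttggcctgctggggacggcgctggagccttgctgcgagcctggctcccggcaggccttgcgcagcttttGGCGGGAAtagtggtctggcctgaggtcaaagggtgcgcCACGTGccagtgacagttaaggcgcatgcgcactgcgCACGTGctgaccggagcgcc
Stag3: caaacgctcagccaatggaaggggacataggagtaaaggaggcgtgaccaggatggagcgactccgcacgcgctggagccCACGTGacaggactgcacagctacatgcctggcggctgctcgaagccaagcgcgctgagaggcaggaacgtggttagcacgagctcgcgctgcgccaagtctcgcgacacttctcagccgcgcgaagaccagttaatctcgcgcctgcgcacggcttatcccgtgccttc

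The Prss50 window holds CNCCTCAG, the Msh5 window CNCCTCAG and GGCGGGAA, the Hormad1 window a pair of CACGTG and a GGCGGGAA, and the Stag3 window CACGTG. Over groups of genes, the CACGTG E-box was found in 24.4% of the 41 windows of called-lower genes on the 5 meiotic lists from cohesin to crossover, against 9.83% of all windows, 8.73% of the 997 windows of all called-lower genes and 7.42% of the 1900 windows of called-higher genes. GGCGGGAA was in 19.5% of those meiotic windows, against 3.93% of all, 7.32% of the lower and 2.47% of the higher windows. The third motif, CNCCTCAG, was in 24.4%, 9.34%, 15.3% and 7.79% of the same 4 groups. Of the 70 windows of genes that fell more than 4-fold, 4.29%, 2.86% and 18.6% held the 3 motifs. Cancer-testis genes that fell had lower shares of these motifs than the meiotic genes. Of their 24 windows 1 held CACGTG (4.17%), 0 GGCGGGAA and 2 CNCCTCAG (8.33%), while 70.8% held CCAAT, which all windows held in 38.6% of cases. The list holds families of close paralogs, whose windows need not be independent. The cancer-testis windows had a median of 8 CG dinucleotides against 19 over all tested genes and over the meiotic genes, and windows of somatic markers that rose had 6. No test was made of these shares.

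Regulators of undifferentiated spermatogonia moved in both directions. Of 24 stem and progenitor factors, 6 fell (25%) and 2 rose (8.33%), with a median of −0.13, against 7.41% and 14.8% of all genes. After pan-germ scaling 1 fell and 7 rose, against 2.04% and 40.8% of all genes. Lin28a, an RNA-binding protein of progenitors, had 127, 136 and 129 CPM in control and 61, 65.9 and 69.7 CPM in CKO libraries (log2 fold change −1.0, SE 0.07, edgeR FDR = 7.6e-05), the fall that remained after pan-germ scaling (−0.52). The pluripotency gene Pou5f1 had 4.22, 5.03 and 2.84 CPM in control and 2.53, 2.29 and 1.5 CPM in CKO libraries, a change of −0.93. Etv5, a GDNF- and FGF-responsive transcription factor that Sertoli cells express too, rose from 19.5, 18.9 and 15.3 CPM to 44, 31.3 and 38.1 CPM (log2 fold change 1.08, SE 0.14, edgeR FDR = 0.00041). Neurog3, a progenitor factor, had 3.74, 7.22 and 6.45 CPM in control and 8.21, 11.2 and 8.24 CPM in CKO libraries, with an edgeR FDR of 0.046, next to the threshold. The GDNF receptor genes Gfra1 (−0.20, SE 0.21) and Ret (0.05, SE 0.14), as well as Zbtb16 (−0.09) and Foxo1 (−0.06), had overlapping groups and were not called. Sall4 changed by −0.45, under the threshold.

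Most germ granule and piRNA genes, which silence transposons, were not called. Most of the 14 pan-germ genes are on the list of these genes, so its values after pan-germ scaling are not independent of that scaling. Of 29 tested genes 4 fell (13.8%, against 7.41% of all genes) and 0 rose (3 fell after pan-germ scaling), with a median of −0.31. These were Tex15, the piRNA cofactor Gpat2 (171, 217 and 197 CPM in control and 89.8, 99.7 and 88 CPM in CKO libraries), Mybl1, which switches on piRNA clusters in pachytene cells (−1.02), and the intercellular bridge gene Tex14 (−0.75). The slicer gene Piwil2 had 629.9, 699 and 582 CPM in control and 623, 666 and 546 CPM in CKO libraries, Mael changed by −0.29 and Tdrd1 by −0.19, and none of the 3 was called. Of the 5 tested germ-cell paralogs of the general transcription machinery, Taf7l (−0.84), Taf4b (−0.62) and the bromodomain gene Brdt (−0.82) fell, none of them after pan-germ scaling. Transcripts of spermatids, which have not yet formed at this age, were low in both genotypes, and the list summed to 12.1 to 15.2 CPM in control and 8.71 to 11.0 CPM in CKO libraries, without overlap. Of its 7 tested genes 2 fell, against 7.41% of all genes, and 0 rose, and after pan-germ scaling 0 fell. The 2 were Spaca1 and Tssk2, named after their values were seen, with changes of −1.21 and −1.26. The protamine gene Prm1 had 0.332, 0.268 and 0.514 CPM in control and 0.265, 0.292 and 0.809 CPM in CKO libraries and overlapped.

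Over all genes 7.41% fell and 14.8% rose. Chromatin regulators of the H3K4, CHD and DNA methylation lists fell in 12.5%, 11.1% and 23.1% of cases. They rose in 6.25%, 11.1% and 7.69% of cases. Most of these shares rest on 1 or 2 genes. Of 16 tested genes of the H3K4 methyltransferases and their COMPASS partners, 2 fell and 1 rose (0 fell and 4 rose after pan-germ scaling). Kmt2a had 309.9, 357 and 286 CPM in control and 186, 202 and 170.1 CPM in CKO libraries (log2 fold change −0.77, SE 0.09, edgeR FDR = 0.00031), and Smyd3 changed by −0.74, both without a call after pan-germ scaling. Setd1b rose from 29, 24.5 and 29.6 CPM to 49.7, 44.1 and 45.6 CPM (log2 fold change 0.75, SE 0.10, edgeR FDR = 0.00043), while its paralog Setd1a had 419, 482 and 409.9 CPM in control and 308, 319.8 and 300.4 CPM in CKO libraries and Kmt2c changed by −0.50, both just under the threshold. Kmt2d and Kmt2b were not called.

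Among the 9 CHD remodelers, 1 fell and 1 rose (11.1% each), against 7.41% and 14.8% of all genes. After pan-germ scaling 1 fell and 4 rose, against 2.04% and 40.8% of all genes. Chd5, which acts when histones are replaced in spermatids, had 56.5, 67.4 and 59 CPM in control and 29, 32.9 and 26 CPM in CKO libraries and fell (log2 fold change −1.05, SE 0.11, edgeR FDR = 0.00019, also after pan-germ scaling). Chd1 had 47.8, 43.8 and 47.9 CPM in control and 66, 66.6 and 68.5 CPM in CKO libraries and rose by 0.53. Chd7, the closest studied relative of Chd8, had 51.2, 47.1 and 41.7 CPM in control and 39.1, 46.9 and 38.7 CPM in CKO libraries, with overlap, and was not called. Of 26 genes for DNA methylation and germline silencing, 6 fell and 2 rose, and after pan-germ scaling 0 fell and 4 rose. The dioxygenases Tet1 and Tet2, which oxidize methylated cytosine, rose by 0.84 and 0.90, with 19.2, 15.6 and 17.5 CPM in control and 34.4, 31.8 and 31.2 CPM in CKO libraries for the latter. Suv39h1 changed by −0.75, Setdb1 by −0.71 and Phc1 by −0.71, and Ehmt2 had 706, 679 and 674 CPM in control and 686, 716 and 668 CPM in CKO libraries.

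Genes of replication and division fell to a smaller extent. Of 49 replication genes, 13 fell and 1 rose, with a median of −0.32, and after pan-germ scaling 0 fell and 1 rose. Mcm5, of the replicative helicase, had 315, 351 and 339.8 CPM in control and 195, 208 and 182 CPM in CKO libraries (log2 fold change −0.78, SE 0.07, edgeR FDR = 0.00014), whereas its subunit partner Mcm2 changed by −0.20 and was not called. Rrm2, which makes deoxynucleotides, changed by −0.96, and the gene that rose was Pold4, a polymerase subunit (1.28, named after its value was seen). Pcna, the sliding clamp, had 195, 225 and 196 CPM in control and 165, 169 and 160.5 CPM in CKO libraries and remained under the fold threshold. Of 26 mitotic chromosome and spindle genes, 10 fell and 0 rose (1 fell after pan-germ scaling), led by Smc4 of condensin with 209.8, 318 and 291 CPM in control and 108, 101 and 109.9 CPM in CKO libraries (log2 fold change −1.36, SE 0.13, edgeR FDR = 0.00017). The proliferation marker Mki67 changed by −0.49 and the mitotic kinase Cdk1 by 0.20, neither of them called.

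Of 18 cyclin and E2F genes, 4 fell and 0 rose (3 fell after pan-germ scaling). Ccnb3, a cyclin of leptotene and zygotene cells on the X chromosome, had 24.6, 45 and 29.7 CPM in control and 9.6, 7.78 and 6.59 CPM in CKO libraries (log2 fold change −2.05, SE 0.22, edgeR FDR = 0.00023). E2f2 changed by −1.69 (SE 0.17) and Ccne2 by −1.04 (SE 0.15), without overlap, while the mitotic cyclin Ccnb1 had 213, 210.0 and 196 CPM in control and 200.5, 207 and 194 CPM in CKO libraries and overlapped. Genes of p53 and its targets, which respond to damage, rose in 5 of 23 cases, against 14.8% of all genes, and fell in 0, with a median of 0.24. After pan-germ scaling 14 of the 23 rose, against 40.8% of all genes. Ddit4, which stress and glucocorticoids also induce, had 24.1, 12.6 and 25.4 CPM in control and 46.3, 43.5 and 48.2 CPM in CKO libraries (1.15, SE 0.21), and Zmat3 and Eda2r changed by 0.75 and 0.74. The well-known p53 targets Cdkn1a and Mdm2 were not called, with Cdkn1a at 4.86, 5.29 and 4.05 CPM in control and 5.83, 5.91 and 6.85 CPM in CKO libraries and Mdm2 at 129.5, 142 and 144 CPM in control and 131, 139 and 128 CPM in CKO libraries. Of 12 Wnt feedback targets 1 rose (8.33%), against 14.8% of all genes. Axin2, the usual readout, had 56.4, 54.6 and 56.2 CPM in control and 51.3, 58.7 and 57.5 CPM in CKO libraries. Of 18 interferon-induced genes 3 rose (16.7%) and 1 fell (5.56%), near the 14.8% and 7.41% of all genes. After pan-germ scaling 8 rose and 0 fell, against 40.8% and 2.04% of all genes.

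Retinoic acid genes changed on both sides. Of 19 tested genes 5 rose (26.3%) and 3 fell (15.8%), against 14.8% and 7.41% of all genes. After pan-germ scaling 9 rose and 0 fell, against 40.8% and 2.04% of all genes. The synthesizing enzyme genes Aldh1a1 (797, 745 and 867 CPM in control and 1685, 1156 and 1480 CPM in CKO libraries) and Aldh1a3 (0.97) rose, as did the retinol transporter Stra6, from 10.8, 5.14 and 7.32 CPM to 18.6, 24.5 and 21.7 CPM (log2 fold change 1.48, SE 0.23, edgeR FDR = 0.00089), and the retinal reductase Dhrs3 (1.05). Aldh1a1 and Stra6 are expressed in Sertoli cells, whose markers rose in the same libraries. Which cells the rises of these genes came from was not tested. The receptor gene Rarg, which acts in progenitors, had 46.2, 54.9 and 58.2 CPM in control and 32.9, 37.9 and 38.4 CPM in CKO libraries (−0.55), Rbp4 changed by −0.77 and the degrading enzyme Cyp26a1 by −0.58.

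Many extracellular matrix and homeobox genes rose as well. Of 43 collagen genes 25 rose (58.1%) and 2 fell, with a median of 0.73. Of 35 integrin and laminin genes 13 rose (37.1%) and 2 fell, with a median of 0.53. Over all genes 14.8% rose and 7.41% fell. After pan-germ scaling 34 collagen genes and 27 integrin and laminin genes rose and 0 of either list fell, against 40.8% and 2.04% of all genes. Col9a2 had 2.93, 2.65 and 2.84 CPM in control and 8.95, 7.85 and 11.1 CPM in CKO libraries, Lama1, a laminin chain of the tubule basement membrane, changed by 0.96 and Itgb8 by 1.42. Against this direction, the laminin chain gene Lama5 fell from 268, 233 and 248 CPM to 141, 159.5 and 166 CPM (log2 fold change −0.68, SE 0.08, edgeR FDR = 0.00029), a call lost after pan-germ scaling. Of 27 Hox genes 9 rose (33.3%) and 1 fell (3.7%), and 14 rose and 0 fell after pan-germ scaling. Among them Hoxd9 had 20.5, 17.1 and 19.6 CPM in control and 40.2, 32.2 and 37.4 CPM in CKO libraries. The RHOX cluster on the X chromosome, which holds genes of germ cells and of Sertoli cells, had 5 falls and 1 rise among 18 tested genes (3 and 2 after pan-germ scaling). Rhox1 (−1.14) fell beside Rhox13, and the gene that rose was Rhox8, a Sertoli marker, with 72.8, 25.2 and 50.9 CPM in control and 115, 120.3 and 131 CPM in CKO libraries.

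By the rule for named genes, the 8 largest rises came mostly from low levels. Among all called genes the largest rise was 4.102, in a gene that the rule left out. Of the 8, Srp54b rose most, by 3.81 (SE 0.89). It had 0.724, 0.476 and 0.787 CPM in control and 3.33, 22.7 and 1.68 CPM in CKO libraries, so that replicate 2 held most of the CKO signal. Near-identical paralogs can share its reads. The others of the 8 rose by 1.78 to 1.93 on the log2 scale. The rule admitted only genes whose groups did not overlap. Hsd17b1, an enzyme of estrogen synthesis, had 2.69, 1.25 and 2.48 CPM in control and 7.8, 7.97 and 8.09 CPM in CKO libraries, and the secreted Wnt antagonist Frzb had 5.55, 1.93 and 6.05 CPM in control and 15.7, 16.6 and 16.6 CPM in CKO libraries. Tnfrsf11b, Plac1 and Serpina3a also belonged to this group. Mylk3 had 0.966, 0.833 and 1.12 CPM in control and 3.88, 3.4 and 2.77 CPM in CKO libraries and the endothelial sialomucin Emcn 1.39, 0.416 and 0.847 CPM in control and 3.71, 3.19 and 2.31 CPM in CKO libraries.

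The response of the c-Kit+ cells was also set beside that of Thy1+ cells, from a fit of all 12 libraries. The result depended on the model. By edgeR's quasi-likelihood test of the difference between the genotype effects without a replicate block, 0 of 18002 genes (0%) had an FDR under 0.05, the lowest FDR was 0.236 and the p before adjustment was below 0.05 for 1804 genes. When libraries were blocked by their number, the same test called 446 genes (2.48%), 422 with the c-Kit+ effect above the Thy1+ effect and 24 below it. DESeq2 without the block called 64 of 16604 genes (0.385%), of which 54 were among the 446. In edgeR's 12-library fit without the block, 14 genes rose (0.0778%) and 236 fell (1.31%) in Thy1+ cells, against 2374 and 903 in c-Kit+ cells. That fit ignored a pairing that was stronger in Thy1+ cells. Correlations of same-numbered control and CKO libraries were 0.696, 0.697 and 0.453 there and 0.125, 0.185 and 0.245 in c-Kit+ cells. Thy1+ counts with the block are not given here, so the counts do not rank the 2 responses. The c-Kit+ calls that follow come from the fit of 6 libraries. Of the 2542 genes called higher in c-Kit+ cells 2389 (94%) were higher in Thy1+ cells too, and 13 were called higher there without the block. Their median log2 fold changes were 0.92 in c-Kit+ and 0.34 in Thy1+ cells. Of the 1270 called lower 1234 (97.2%) were lower in Thy1+ cells and 160 were called lower there, with medians of −0.73 and −0.48. The share of shared directions over all genes is not given here. These values describe genes chosen in the c-Kit+ libraries, and libraries of both fractions can come from the same pups.

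For the lists, the Thy1+ medians were −0.88 for the chromosome axis and synaptonemal complex (−1.30 in c-Kit+ cells in the same fit), −1.23 for the cancer-testis genes (−1.13) and 0.59 for the Sertoli markers (1.22). Stem and progenitor factors had a median of −0.57 in Thy1+ and −0.08 in c-Kit+ cells. Of its members Etv5, Ret and Zbtb16 passed the threshold of the difference with the replicate block (edgeR FDR = 0.016, 0.042 and 0.038), Etv5 and Ret also by DESeq2, and none without the block. Ret changed by −0.98 in Thy1+ and 0.11 in c-Kit+ cells, and Zbtb16 by −0.60 and −0.03. Prss50, Ly6k and Meioc changed by −3.64, −3.67 and −2.35 in Thy1+ cells, and Msh5 by −1.11 (SE 0.26) against −2.78 (SE 0.27) in c-Kit+ cells. Cd3e changed by −0.69 (SE 0.44) in Thy1+ cells.

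The 5 genes with the lowest p of the difference, none past the threshold of edgeR without the block but all called by edgeR with the block (FDR = 0.016 for each) and by DESeq2, were Pbx3, Fst, Etv5, Eml2 and Pygl. Pbx3, a partner of HOX proteins, had 30.7, 53 and 41.5 CPM in control and 8.33, 7.95 and 7.25 CPM in CKO libraries in c-Kit+ cells and 20.4, 28.5 and 24.8 CPM in control and 18.2, 14.2 and 19.7 CPM in CKO Thy1+ libraries. The groups were far apart in c-Kit+ cells and nearly touched in Thy1+ cells. The effect was −2.35 (SE 0.20) in c-Kit+ and −0.50 (SE 0.19) in Thy1+ cells, a difference of −1.86 (95% interval −2.45 to −1.26, edgeR FDR without the block = 0.236, DESeq2 FDR = 7.0e-07). Etv5 had 119, 89.6 and 83.5 CPM in control and 82.7, 75.5 and 96.0 CPM in CKO Thy1+ libraries, which overlapped. Its effects were 1.14 (SE 0.16) in c-Kit+ and −0.20 (SE 0.16) in Thy1+ cells. Fst, which encodes the activin antagonist follistatin, changed by 0.66 in c-Kit+ and −0.59 in Thy1+ cells, Eml2 by 0.98 and 0.02, and the glycogen phosphorylase gene Pygl by 0.69 and −0.21.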

How the data were processed

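RNA was sequenced from c-Kit+ and Thy1+ testis cells of pups at 10 dpp, and the c-Kit+ libraries were compared by genotype. Per the labels and the methods of the study, poly(A) RNA went into directional paired-end libraries, reads were trimmed with Trimmomatic 0.39 and aligned to mm10 with HISAT2 2.1.0, and the authors deposited a table of raw counts per Entrez gene from featureCounts (version 2.0.3 in the file header). The recorded command counted individual reads without using strand, so that a gene and an overlapping or antisense partner cannot be told apart, and reads of near-identical genes can be split. The deposited counts were used as they are. The groups came from the labels, and the 30 chromatin immunoprecipitation samples were not analysed here. A symbol in the RefSeq tables was found for 25275 genes, and 750 of 758 list entries were matched. Rows without a symbol held 0.625% to 0.776% of the counts.

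Genes were filtered with filterByExpr, scaled with TMM and tested with edgeR 4.0.16 in R 4.3.3 (glmQLFit and glmQLFTest, 2-sided, Benjamini-Hochberg FDR over all 17134 genes). The difference from Thy1+ cells was an interaction term in a fit of all 12 libraries. Alternatives were DESeq2 1.42.0, edgeR's exact test, other scalings and filters, a replicate block and leaving out each library. The methods name 3 pups for each analysis without saying whether a library is 1 pup or a pool, so p-values measure the spread between these libraries, which may be technical. On simulated c-Kit+ counts for 16910 genes the test recovered 172 of 200 genes changed by 1 on the log2 scale and called 9 others. These changes were few and balanced between directions, so the simulation does not test the choice of scaling. Counts limit precision for genes of a few CPM.

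Same-numbered c-Kit+ control and CKO libraries deviated weakly together from their group means (correlations of 0.101, 0.101 and 0.125, against −0.0659 to −0.0384 for other pairs). Deviations from a group mean cancel out within the group, so the negative values of other pairs follow from the positive ones. The same-numbered values were just over the minimum of 0.1 set for pairing, and these libraries were therefore treated as paired in the replicate block. The pairing comes from this check, since the sources used here do not say what a number stands for.

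The lists and the genes were chosen with earlier results of these data known. Named genes were Chd8, Kit and Thy1, the key genes of each list with up to 3 of its largest called rises and falls and its most abundant member, the 8 largest rises and falls over all genes (libraries not overlapping, mean log2 CPM of at least 1), and the 5 genes with the lowest p of the difference. The rises and falls taken from a list met the same conditions, so their lack of overlap came with the choice. Key genes and most abundant members were named whatever their values. Motifs were searched in RefSeq promoter windows of GRCm38.p6.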

Additional observations from a re-analysis of the deposited data

How the results depend on the processing

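The main counts were 2542 genes higher and 1270 lower. Scaling to the 14 pan-germ genes gave 6984 and 350, and scaling to 13 of them without Tex15, an alternative chosen after seeing the data, gave 4967 and 483. Without a minimum fold 3139 genes were lower. Of the germ-cell list genes 101 fell in the reported fit, 60 with pan-germ scaling and 71 without Tex15. Leaving out 1 library at a time gave 2087 to 2735 genes higher and 1039 to 1409 lower. The replicate block gave 2705 higher and 1287 lower, and it called 7 more of the named genes (Star, Cyp17a1, Csf1r, C1qa, Mrc1, Ptprc and Cma1) and changed no other call among them. For the difference from Thy1+ cells, where 0 genes passed, DESeq2 gave 64, the replicate block 446, and leaving out 1 library 0 to 1, the 1 without c-Kit+ control replicate 3. In that fit same-numbered libraries of different groups had correlations of 0.0495 to 0.697 and other pairs −0.554 to 0.171. Taking deviations from group means lowers the values of the other pairs. All same-numbered values were positive, so that the numbers carry shared variation, although not every pair was above 0.1. Whether the numbers mark shared pups was not tested. Of 166 named genes that were called, 126 stayed called with pan-germ scaling, 141 in the fit of 12 libraries and 152 to 164 without 1 library. None reversed under any alternative. Many of the 166 were named for large calls without overlap in these libraries, so keeping the call came partly with the choice. Of 63 named genes that were not called, 19 were called with pan-germ scaling. The cause of these changes was not tested. Depth limits genes of a few CPM.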
